A study of Zea mays with 10 samples.

Results

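Opaque-2 (O2) belongs to the bZIP transcription factors and acts in the maize endosperm, the starch- and protein-storing tissue of the kernel, where it is known to switch on genes for storage proteins. Factors of the bZIP class bind DNA as dimers through a basic region, and a leucine zipper holds the dimer together. Chromatin immunoprecipitation with sequencing (ChIP-seq) marks such binding as peaks, short stretches where DNA fragments recovered with an antibody pile up above a background. The middle parts of maize chromosomes are known to be rich in repeats and poor in genes relative to the ends.

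The peaks described here are isolated short O2 peaks at the middles of the chromosomes. A peak was taken when it was under 250 bp long, had no other summit within 10000 bp on its chromosome, and had its summit in the middle of 3 equal parts of the span between the first and the last summit of that chromosome. The centromeres were not used to set this middle. Of the 6365 peaks in the list, 1166 met this rule, on all 10 chromosomes. A further 3111 peaks were as short and as isolated but lay in the 2 outer parts, 1488 in the left one and 1623 in the right one, and these are the peaks the middle ones are set against. Length, spacing and position chose the peaks from the list, and the rule did not use the height, background or enrichment of a peak. These values were still not free of the choice. The lowest −log10 q-value in the list, a score of significance against background adjusted for many tests, was 1.319, in whichever part a peak lay. Length also went weakly with pileup, the height of a peak, at a Spearman's rho of 0.24 in the middle and 0.18 outside.

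The peak list came from 4 ChIP libraries made with an anti-O2 antibody from endosperm 15 days after pollination, 2 from the inbred line B73 (WT) and 2 from an opaque-2 mutant in that background (B73o2, here o2), both grown in a greenhouse and self-pollinated. By the series design the WT ChIP was set against the o2 ChIP, in which the gene of the target protein is mutated; the allele is not given in the labels, nor is it said whether replicates came from separate plants. The 4 libraries held 25580850 to 38299434 reads, of which 33.1% to 37.7% mapped uniquely and 35.4% to 42.1% to several places. As there was 1 list for the whole series and no list per replicate, no difference below has a test over samples. Differences are instead set beside their spread over the 10 chromosomes, and intervals are exact Clopper-Pearson 95% intervals that cover counting error only. Peaks of 1 list share the same libraries and are not replicates of a condition. Positions are on B73 RefGen_v3 and count from 1; genes near the peaks and the DNA sequence under them were not analysed here.

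Isolated short O2 peaks were sparser in the chromosome middles than towards the ends. The middle parts held 1.70 of them per Mb of span, against 2.27 per Mb in the outer parts, a ratio of 0.75. The span was counted whole, and how much of it reads can map to uniquely was not measured in either group. Put as a share, 27.3% of the 4277 isolated short peaks lay in the middle parts (95% interval 25.9% to 28.6%), which make up 33.3% of the span. The ratio was under 1 on 9 of the 10 chromosomes, and its SD over chromosomes was 0.148.

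The chromosomes differed widely in this. The lowest ratio was 0.555 on chromosome 9, where 73 peaks in the middle gave 1.40 per Mb against 2.52 per Mb outside. Chromosomes 7 and 2 came next, with ratios of 0.597 and 0.623. On chromosome 7 the middle held 1.65 peaks per Mb and the outer parts 2.77, and on chromosome 2 the values were 1.39 per Mb in the middle and 2.23 per Mb outside. These 3 chromosomes thus had the thinnest middles relative to their ends.

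In the central group of chromosomes the middle was sparser by less. The ratio was 0.713 on chromosome 5, 0.737 on chromosome 1, 0.787 on chromosome 8, 0.796 on chromosome 4 and 0.829 on chromosome 6. The density in the middle ran from 1.58 per Mb on chromosome 4 to 1.94 per Mb on chromosome 6 in these 5. On chromosomes 3 and 10 the middle was about as dense as the rest, with ratios of 1.02 and 0.942.

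On both of these chromosomes the left part, not the middle, was the sparsest. Chromosome 3 had 2.01 peaks per Mb in the middle, against 1.67 in the left part and 2.28 in the right part. Chromosome 10 had 1.81 per Mb in the middle, against 1.39 on the left and 2.45 on the right. On the other 8 chromosomes the middle was sparser than either side, and on all 10 it was sparser than the right part.

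**Figure D1:**
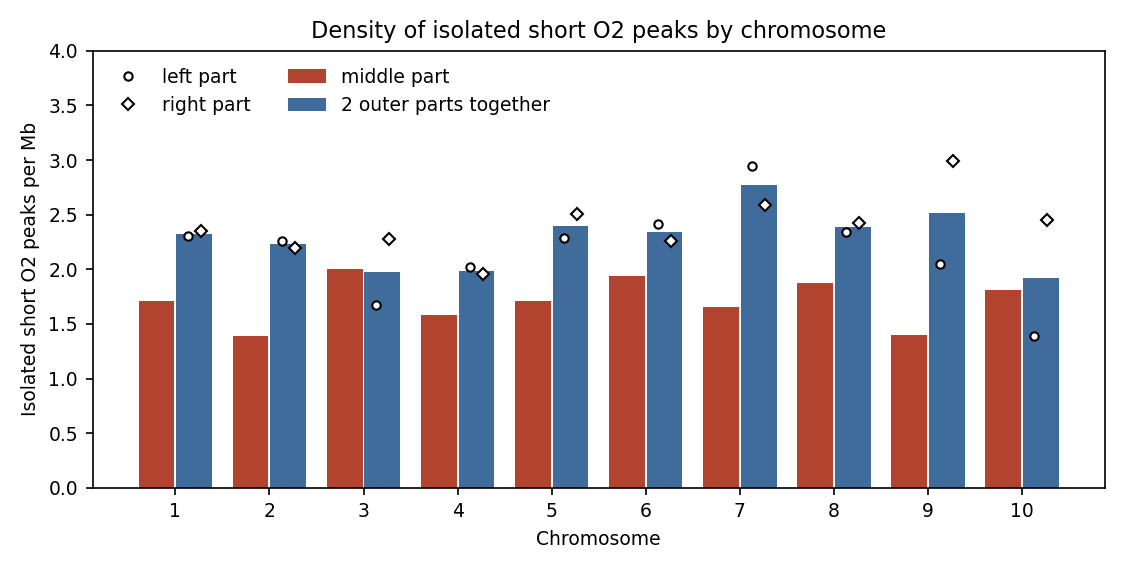
Isolated short O2 peaks per Mb of summit span (vertical axis, from 0) on each of the 10 chromosomes (horizontal axis), in the middle part (left bar) and in the 2 outer parts together (right bar), with the left part as a circle and the right part as a diamond. The left bar is the shorter of the pair on 9 chromosomes, and on chromosomes 3 and 10 the circle lies below the top of the left bar.

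Along the span, the density summed over the chromosomes was lowest near the centre and highest at the ends. Profiles of this kind were not made for single chromosomes. When every span was divided into 10 equal bins and these were added up over the chromosomes, the density was 1.70 per Mb in the fourth bin, 1.60 in the fifth, 1.66 in the sixth and 1.93 in the seventh. The first and the last bin had the highest densities, 2.70 and 2.67 per Mb. The lowest value, in the fifth bin, came from 329 peaks. The third bin, which lies wholly in the left outer part, had 1.73 per Mb, so the sparse stretch ran past the border of the middle on that side.

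The lower density was shared by the other kinds of O2 peaks. Short peaks with a neighbour within 10000 bp had a ratio of middle to outer density of 0.807, from 211 peaks in the middle and 523 outside. Peaks of 250 bp or more had a ratio of 0.744, from 367 peaks in the middle and 987 outside. Their shares in the middle were 28.7% (interval 25.5% to 32.2%) and 27.1% (interval 24.8% to 29.6%), both overlapping the interval of the isolated short peaks.

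The make-up of the middle was accordingly like that of the ends. Of 1377 short peaks in the middle parts 84.7% were isolated (interval 82.7% to 86.5%), against 85.6% of 3634 short peaks in the outer parts (interval 84.4% to 86.7%). Peaks of 250 bp or more made up 21.0% of all peaks in the middle (interval 19.2% to 23.0%) and 21.4% outside (interval 20.2% to 22.6%). In both comparisons the intervals overlap.

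**Figure D2:**
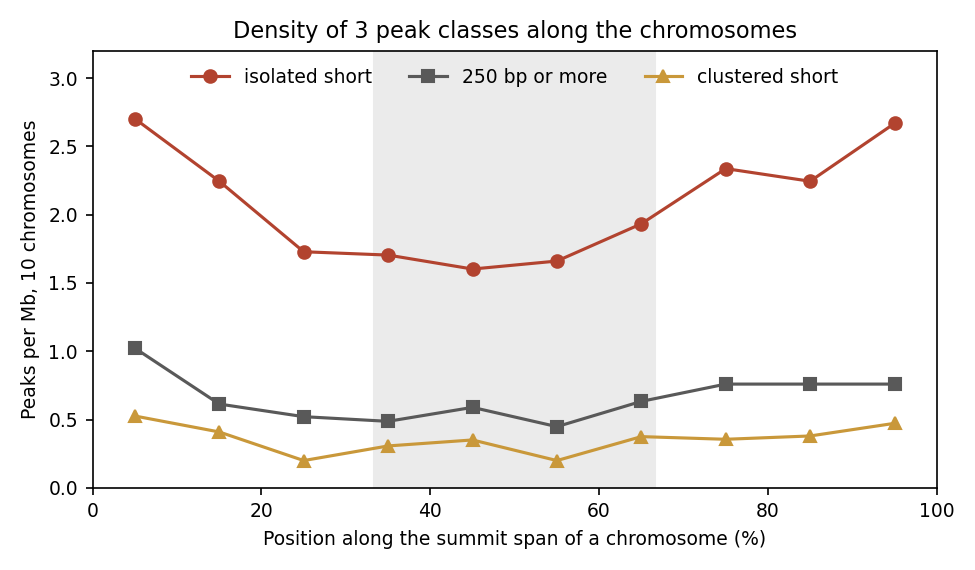
Peaks per Mb over the 10 chromosomes (vertical axis, from 0) against position along the summit span in 10 equal bins (horizontal axis, percent of the span), for isolated short peaks (circles), peaks of 250 bp or more (squares) and short peaks with a neighbour within 10000 bp (triangles); the shaded area is the middle part. The isolated short peaks go from 2.70 per Mb in the first bin to 1.60 in the fifth and 2.67 in the last.

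With fewer peaks, the spacing in the middle was wider. The distance from a peak to the nearest summit of any kind had a median of 143667 bp in the middle parts and 113061 bp in the outer parts. The limits of distance, pileup, background and fold enrichment by which shares of peaks are given here and below were chosen after the values were seen. The distance was over 100 kb for 61.8% of the peaks in the middle (interval 59.0% to 64.6%), against 54.5% outside (interval 52.8% to 56.3%), and over 500 kb for 9.43% of the peaks in the middle (interval 7.82% to 11.3%), against 4.85% outside (interval 4.13% to 5.67%). Distances of under 20 kb, close to the limit of the rule, were about as frequent in the middle as outside, at 7.38% (interval 5.94% to 9.03%) and 7.55% (interval 6.65% to 8.54%). Spacing was part of the rule through its lower limit only. On 8 of the 10 chromosomes the widest gap between neighbouring summits of the whole list was centred in the middle part, the exceptions being chromosomes 1 and 3. These widest gaps ran from 2.29 Mb on chromosome 6 to 5.88 Mb on chromosome 3.

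The 3 most remote peaks lay on chromosomes 1, 5 and 2. At chr1:119676111-119676314 a peak of 204 bp with a pileup of 17.11 and a fold enrichment of 5.88 was 2256628 bp from its nearest summit. The peak at chr5:136449568-136449773, 206 bp long, had its nearest summit at 1949260 bp, a pileup of 13.31 and a fold enrichment of 6.16. The peak at chr2:108385779-108385974, 196 bp long, was 1430590 bp from the nearest summit and had a pileup of 16.16 with a fold enrichment of 3.43. The first 2 of these enrichments lay above the upper quartile of the peaks in the middle, 5.40, and the last below the lower quartile, 3.81.

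In length the peaks of the middle resembled those outside. The rule held both groups under 250 bp and the list began at 160 bp, which left little room for a difference. The median was 181 bp in the middle parts and 182 bp in the outer parts, and the quartiles were 162 and 205 bp in the middle against 163 and 207 bp outside. The shortest length in the list, 160 bp, was held by 22.0% of the peaks in the middle (interval 19.6% to 24.4%) and by 21.3% of those outside (interval 19.9% to 22.8%). By chromosome the median length was greater in the middle on 3 chromosomes, smaller on 5 and equal on 2. The difference ran from -7 bp on chromosome 10 to 6.5 bp on chromosome 1.

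The height of the peaks was close in both groups as well. Pileup, the stack of ChIP fragments at the summit as scaled by the peak caller, had a median of 15.21 in both groups. Its quartiles were 12.36 and 18.06 in the middle and 13.31 and 18.06 outside. All pileup values in the list were whole multiples of 0.951 within 0.00528, so that the worth of 1 fragment can be read from them. This step equals neither the ratio of o2 to WT ChIP reads that mapped uniquely, 0.813, nor that of all reads, 0.884, and which reads the pileup counts is not stated in the labels. On that reading the median peak rested on 16 fragments in the middle and on 16 outside, and the lowest peaks in each group on 8.

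Small differences in the median pileup all went one way. On 5 chromosomes, 2, 6, 7, 9 and 10, the median in the middle was lower, with a difference of -0.475 on chromosome 10 and of -0.95, the worth of 1 fragment, on the other 4. On the remaining 5 chromosomes the medians were equal. Pileups of under 10 were found for 2.92% of the peaks in the middle (interval 2.03% to 4.05%) and for 3.60% outside (interval 2.97% to 4.32%).

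**Figure D3:**
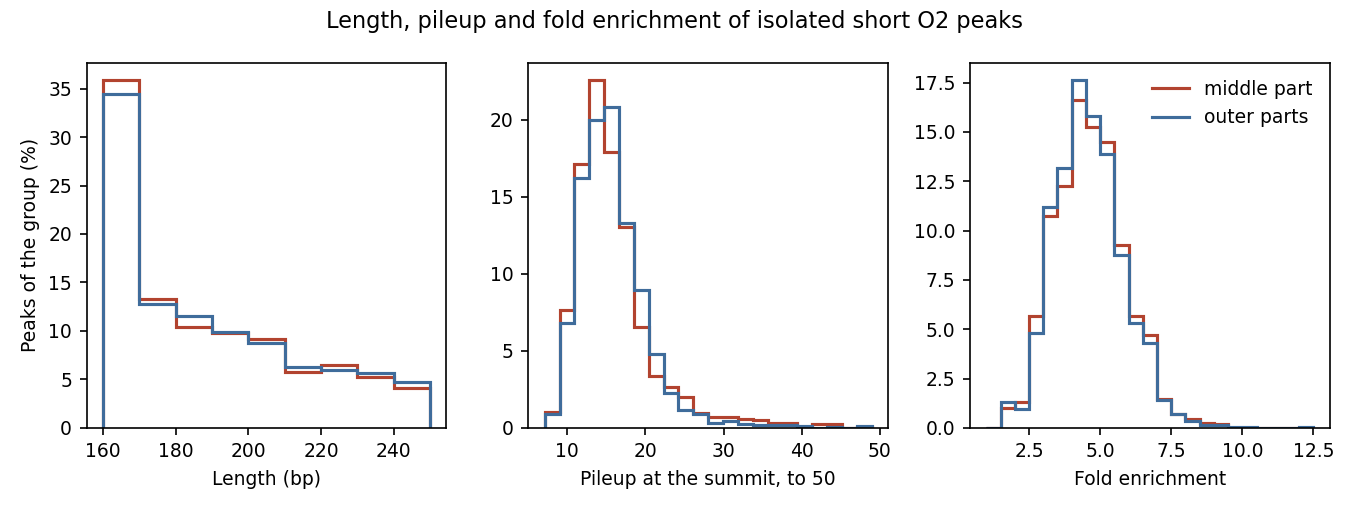
Distribution of length in bp, pileup at the summit and fold enrichment (horizontal axes) as percent of each group (vertical axes), for the 1166 isolated short peaks of the middle parts and the 3111 of the outer parts. The outlines lie close together in each panel; pileups of 50 or more, 16 in the middle and 65 outside, lie beyond the right edge of the second panel.

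Fold enrichment, the authors' ratio of pileup to local background, was also close. Its median was 4.53 in the middle parts and 4.52 outside, with quartiles of 3.81 and 5.40 in the middle and 3.81 and 5.35 outside. By chromosome the median was higher in the middle on 6 chromosomes, lower on 3 and equal on 1. The difference ran from -0.19 on chromosome 3 to 0.39 on chromosome 6, with an SD of 0.184. The −log10 q-value, the authors' adjusted score of significance against background, had medians of 3.92 in the middle and 3.89 outside.

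The local background could be read back from the list. MACS2, named in the submitters' processing notes, is known to give fold enrichment as (pileup + 1)/(background + 1), and a Poisson tail recomputed from the background so obtained met the deposited −log10 p-value within 0.01 for 99.9% of the 6365 peaks. If the o2 ChIP was the control of the peak calling, as the series design implies, this background has 2 readings. Above its lowest value it stands for fragments recovered from the mutant at or around the same place. The lowest value was read as a genome-wide level. Its median was 2.24 in the middle parts and 2.54 outside. The median was lower in the middle on 7 chromosomes, higher on chromosomes 3 and 4, and equal within rounding on chromosome 1. The differences ran from -0.92 on chromosome 9 to 0.55 on chromosome 3. Their SD of 0.492 describes single chromosomes and is not the error of the difference of -0.304 over all chromosomes.

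The lowest background the list allows was more frequent in the middle. This value, 1.32, is a floor that many peaks share, read as a genome-wide level. The background at the place itself is thus not known for these peaks. Of the peaks in the middle 17.9% had it (209 peaks, interval 15.8% to 20.2%), against 13.8% of those outside (428 peaks, interval 12.6% to 15.0%). These intervals do not overlap. The share was higher in the middle on 9 chromosomes, most of all on chromosome 9, where it was 27.4% in the middle and 11.03% outside. Chromosome 2 was the exception, with 12.7% in the middle and 13.6% outside. Peaks at the floor had a median pileup of 12.36 and a median fold enrichment of 5.75 in the middle, and the same 2 medians outside.

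The 5 peaks of the middle with the highest fold enrichment had a background of at most 2.00. Their pileups, from 19.01 to 25.67, lay above the upper quartile of the middle, 18.06, and far below its highest pileup, 89.35. The highest, at chr3:145573935-145574116, was 182 bp long with a pileup of 20.91 over the floor background of 1.32, a fold enrichment of 9.44. The next was at chr9:81778061-81778285, 225 bp long, with a pileup of 19.96 over the same floor and a fold enrichment of 9.03. A second peak of chromosome 9 in this group, at chr9:82954467-82954699, was 233 bp long, with a pileup of 25.67, a background of 2.00 and a fold enrichment of 8.89.

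The other 2 lay on chromosomes 8 and 1. The peak at chr8:68405582-68405792 had a pileup of 23.76 over a background of 1.76, a fold enrichment of 8.97. The peak at chr1:138610127-138610336 had a pileup of 19.01 over the floor, a fold enrichment of 8.62. The −log10 q-values of the 5 ran from 11.46 to 14.5. Fold enrichments of over 8 were found for 0.858% of the peaks in the middle (10 peaks, interval 0.412% to 1.57%) and for 0.739% outside (23 peaks, interval 0.469% to 1.11%).

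The tallest peaks were among the least enriched. Across the peaks of the middle, pileup went with implied background (Spearman's rho 0.70, n = 1166) and fold enrichment went against it (rho -0.76); outside, the values were 0.68 and -0.74 (n = 3111). The fold enrichment is computed from the other 2 values, and all of them come from the same libraries, so these are descriptions. The list also stops at a −log10 q-value of 1.319, so a peak over a higher background had to be taller to be listed. In the middle, a pileup of 7.6 was listed over the floor background of 1.32. Over a background of 41.0, a pileup of 66.54 only just passed, with a −log10 q-value of 1.321. How much of the rhos and of the low enrichment of tall peaks follows from this limit was not tested. The 16 peaks of the middle with a pileup of 50 or more had a median fold enrichment of 1.73. It was 3.81 for the 149 peaks with a pileup from 20 to under 50, and 4.77 for the 1001 peaks under 20. Outside, the 65 peaks with a pileup of 50 or more had a median of 1.90 and reached 5.92. There the median was 4.38 from 20 to under 50 and 4.53 under 20, so the drop lay mostly in the tallest class.

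On 7 of the 10 chromosomes the tallest isolated short peak of the middle had a fold enrichment of 2.0021 or less. The tallest of all, at chr2:89038931-89039135, was 205 bp long with a pileup of 89.35 over a background of 54.0, a fold enrichment of 1.64. On chromosome 3 the tallest, at chr3:84086631-84086797, was 167 bp long with a pileup of 86.5 over a background of 44.6, a fold enrichment of 1.92. On chromosome 5 it was at chr5:86612882-86613047, 166 bp long, with a pileup of 83.65 over 41.3 and a fold enrichment of 2.00. In each of these 3 places the implied background itself was over 40.

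Chromosome 1 had its tallest such peak at chr1:152712523-152712745, with a pileup of 80.8 over a background of 52.0. Its fold enrichment of 1.54 was the lowest of all 1166 peaks. The next lowest were a pair on chromosome 3, at chr3:113886803-113886967 and chr3:114974419-114974645, with fold enrichments of 1.597 and 1.603 and pileups of 83.65 and 85.55. The tallest peaks on chromosomes 4, 6 and 10 were alike, at chr4:112490609-112490768, chr6:60687454-60687676 and chr10:55986529-55986711, with pileups of 66.54, 70.34 and 64.64 and fold enrichments of 1.78, 1.70 and 1.73.

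The tallest peaks of the other 3 chromosomes stood over a lower background. At chr8:106176801-106177008 a peak of 208 bp had a pileup of 32.32 over a background of 3.0, a fold enrichment of 8.33, and its −log10 q-value of 17.2 was the highest of the peaks in the middle. The tallest on chromosome 7, at chr7:62392774-62392968, had a pileup of 42.78 over 13 and a fold enrichment of 3.13. That on chromosome 9, at chr9:63949152-63949327, had a pileup of 31.37 over 9.0 and a fold enrichment of 3.24.

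A few peaks of the middle stood over a high background. No peak there had an implied background between 19 and 31, and 15 lay above that gap, with pileups from 54.18 to 89.35 and fold enrichments from 1.543 to 2.104. This gap was found after the values were seen and rests on few peaks. It did not hold outside, where a peak on chromosome 2 had a pileup of 52.28 over a background of 24.0. Backgrounds of 20 or more made up 1.29% of the peaks in the middle (interval 0.722% to 2.11%), against 1.80% outside (56 peaks, interval 1.36% to 2.33%), with overlapping intervals. At a limit of 10 the order was the other way, with 3.17% in the middle (37 peaks, interval 2.24% to 4.35%) and 2.73% outside (85 peaks, interval 2.19% to 3.37%), again with overlap. Of the 15 peaks above the gap, chromosome 3 held 6, chromosome 1 held 3 and chromosome 4 held 2, while chromosomes 2, 5, 6 and 10 held 1 each and chromosomes 7, 8 and 9 none. In 13 of the 15 the background was a whole number within 0.005, as it was in 51 of the 56 such peaks outside; over all isolated short peaks the share was 45.9% in the middle and 48.2% outside.

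**Figure D4:**
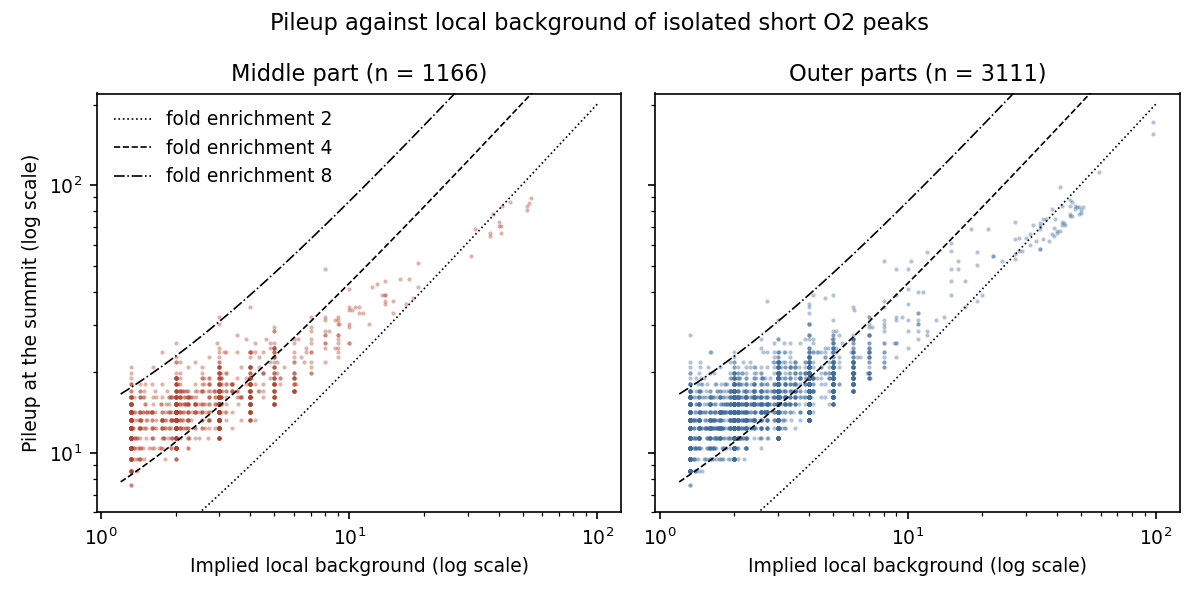
Pileup at the summit (vertical axis, log scale) against the implied local background (horizontal axis, log scale) for the isolated short peaks of the middle parts (left panel) and of the outer parts (right panel), 1 point a peak; the lines mark fold enrichments of 2, 4 and 8. Most points lie at a background under 5, and in the left panel 15 points lie beyond a background of 30 near the lowest line.

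The peaks named beside the limits of the rule had pileups from 14.26 to 21.86. In the middle parts the longest peak taken, at chr9:82180220-82180468, was 249 bp long with a pileup of 18.06, and the shortest isolated peak not taken, at chr1:141374696-141374945, was 250 bp long with a pileup of 15.21. The least isolated peak taken, at chr3:119282308-119282467, was 10060 bp from its neighbour with a pileup of 15.21, and the short peak nearest to the limit on the other side, at chr1:167902168-167902389, was 10000 bp from its neighbour with a pileup of 21.86. The peak taken nearest to a border of the middle, at chr8:116923878-116924037, lay 16.4 kb inside it, and the nearest one left out, at chr9:52225170-52225345, lay 0.091 kb outside; both had a pileup of 14.26 and a fold enrichment of 3.81.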

How the data were processed

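ChIP of WT (2 libraries) was set against ChIP of o2 (2 libraries), per the labels' series design. The submitters' processing notes name Bowtie2 2.1.0, bedtools 2.17.0, MACS2 2.1.0.20140616 and B73 RefGen_v3, without roles; pooling of replicates, the reads used and the caller's settings are not stated in the labels. The authors deposited 1 list that gives, per the file headers, the length and summit of every peak with its pileup signal, its fold enrichment ratio and its p and q as −log10 values. From the deposited mapping table, read counts of the ChIP libraries were taken; the ratio of uniquely mapped reads, o2 ChIP over WT ChIP, was 0.813. The expression table was not used.

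Distances to the nearest summit were taken over the whole list, and a summit exactly 10000 bp away counted as within that distance. Density is the number of peaks per Mb of the summit span. The background was read back from pileup and fold enrichment with the pileup as whole multiples of its step; the −log10 p recomputed from it was at most 0.296 off. Python 3.11.15 with pandas 2.3.3 and scipy 1.17.1 was used, and the rule was tested on simulated peaks. Named peaks are the tallest of each chromosome, the 5 highest and 3 lowest in fold enrichment, the 3 most remote and those beside each limit. The rule and the peaks were chosen with earlier results of these data known. Alternatives changed the limits of length, distance and position, the q-value, the sequences included and the chromosomes used.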

Additional observations from a re-analysis of the deposited data

How the results depend on the processing

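The direction of the density ratio held under all 20 alternatives, from 0.721 without chromosome 3 to 0.771 for peaks with a −log10 q-value at or above the median of the list, which is 3.89. The other values moved by less than their SD over chromosomes under those alternatives, apart from the median pileup. That difference was 0 for the peaks as chosen and -0.95 both with a length limit of 200 bp and with no other summit within 50000 bp; 0.95 is the worth of 1 fragment, and the cause was not tested. The difference in length ran from -3 to 0 bp, that in fold enrichment from 0 to 0.17, that in implied background from -0.320 to -0.048 and that in −log10 q-value from -0.027 to 0.026. All sequence names in the list are numbered chromosomes, so including every name changed nothing. Leaving out pileups of 50 or more, chosen after seeing the data, gave a density ratio of 0.755. No paired analysis was possible because the results come from 1 peak list and no test over samples. The median peak rested on 16 fragments, and pileup moves in steps of 1 fragment. The counting error in the height of a single peak was not estimated.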
